A study of Mus musculus with 4 samples.

Results

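The genes described here carry fatty acids into the hepatocyte, join them to glycerol and store the product in droplets. They are Cd36, Fabp1, Acsl1, Gpam, Agpat2, Lpin1, Dgat1, Dgat2, Mogat1 and Cidec. They were chosen by symbol: every non-control probe whose RefSeq accession maps to 1 of these symbols was taken. All 10 genes were found, with 20 probes of 41174 on the array, and all 10 were among the 31077 genes or accessions tested. Liver RNA came from C57Bl/6 males aged 3 months that carry a mutant Wrn protein, a RecQ helicase lost in Werner syndrome. In the treated group, 4 such mice had been given 0.4% vitamin C to drink from weaning on, and 4 untreated Wrn mutant mice were the controls. All mice were kept on a reversed light-dark cycle with free access to food and water. The mutation is shared by both groups, and livers with normal Wrn were not analysed here. Each of 4 arrays held 1 treated liver (Cy3) against 1 untreated liver (Cy5), so a value is the log2 ratio of the treated to the untreated liver of a pair. Which liver is higher was read from the dye labels, a direction opposite in sign to the table the authors deposited, and no array was dye-swapped, so a probe's dye effect cannot be told apart from the treatment.

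As background, long-chain fatty acids enter hepatocytes with the help of membrane proteins such as CD36, are bound in the cytosol by fatty acid binding proteins and are activated to acyl-CoA by synthetases. Triglyceride is then built on glycerol phosphate by a chain of acyltransferases and a phosphatase, or from monoacylglycerol by a shorter route. The product is exported in lipoproteins or kept in droplets, whose surface proteins control their growth and breakdown. Cd36, Mogat1 and Cidec are known as genes that are low in the lean mouse liver and high in the fatty one.

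None of the 10 genes passed the threshold of limma's test over all genes (adjusted p under 0.05), and neither did any other gene. The share called was 0% over 31077 genes, and the smallest adjusted p of a member was 0.144. An unadjusted p under 0.05 was reached by 4 of 10 members, against 27.7% of all genes (8609). Cd36 was higher in treated livers, as 11.1% of all genes were, and Fabp1, Acsl1 and Dgat2 were lower, as 16.6% were. When both channels were fitted as samples and arrays as random blocks, 885 of 31066 genes passed, 552 higher and 333 lower. The lower ones included 2 members, Acsl1 and Dgat2. Both belong to the 153 brightest genes tested, whose median ratio was -0.3. The median of the members' mean log2 ratios was 0.15, beside -0.015 over all genes tested. The members' medians on replicates 1 to 4 were 0.14, -0.2, 0.33 and -0.22, so 2 pairs lay above 0 and 2 below, and the median without replicate 3 was -0.00086.

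For some of the members the 4 pairs differed widely from each other. The SD over the arrays was 0.5 or more on the log2 scale for 4 of 10 members, Cd36, Gpam, Lpin1 and Cidec, and for 2.11% of all genes tested. Such a spread was not particular to the members. In the 5 pathway lists described below the share was 6.25% to 20%. It was 37.5% of the adipocyte markers and 0% to 16.7% in the marker lists of other cell types. The cutoff of 0.5 was set after values had been seen. The median SD was 0.32 over the members and 0.13 over all genes. Only 3 of 10 members had the same sign on all 4 arrays, a share close to the 30.9% of all genes. Those 3 were Fabp1, Acsl1 and Dgat2, the members with the brightest probes.

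**Figure D1:**
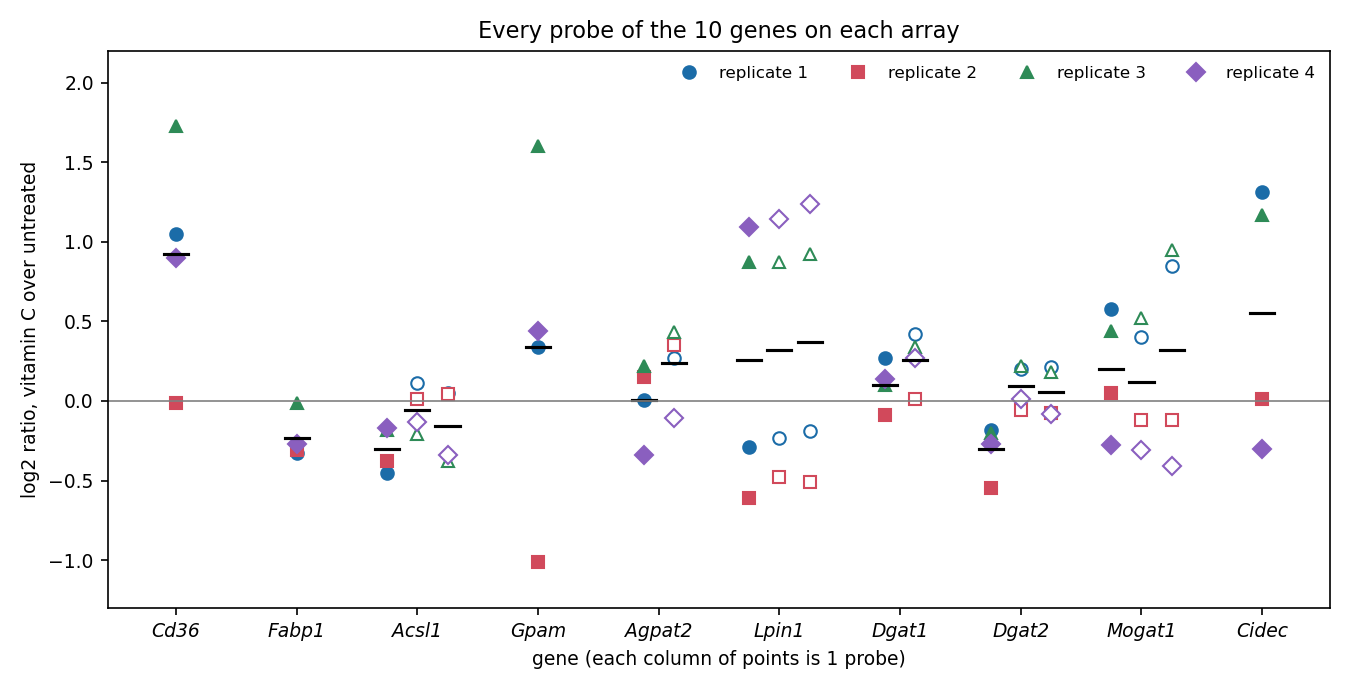
Log2 ratio of vitamin C over untreated (vertical axis) for every probe of the 10 genes (horizontal axis), with 1 point per array, filled for the brightest probe of a gene and open for the others, and a black line at the mean of 4 arrays. Points of Cd36, Gpam, Lpin1 and Cidec are spread widely, whereas those of Fabp1 and Dgat1 lie within 0.42 of 0.

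Replicate 2 ran apart from the other arrays. Over all probes its ratios correlated with those of replicates 1, 3 and 4 at 0.0572, -0.0938 and -0.131, whereas those 3 correlated with each other at 0.563 to 0.77. Probes are no independent replicates, and these values describe the arrays only. Without replicate 2, 8754 of 31077 genes passed limma's test (28.2%), 3 of them members: Cd36, higher as 10% of all genes were, and Acsl1 and Dgat2, lower as 18.1% were. Each member is therefore given pair by pair. The arrays shared 1 slide and 1 scan date, and 0 spots were saturated. Median spot intensities ran from 379.5 to 530 in Cy3 and from 813 to 962 in Cy5, against 62 to 67 and 66 to 80 on negative control spots. The number of arrays limits the precision, and the labels call the pairs biological replicates.

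The stretches upstream of the 4 members with the widest spread are shown because these are the members whose ratios moved furthest between pairs. Each is the 250 bases before the transcription start, 5′ to 3′ on the gene's strand, from RefSeq (GRCm38.p6). Where the table has 2 starts, as for Gpam and Cidec, the stretch that it lists first is printed. Capitals mark matches on either strand to the nuclear receptor half-site AGGTCA, to CCAAT or to the GC box GGGCGG.
Cd36, chr5:17835897-17836146, minus strand: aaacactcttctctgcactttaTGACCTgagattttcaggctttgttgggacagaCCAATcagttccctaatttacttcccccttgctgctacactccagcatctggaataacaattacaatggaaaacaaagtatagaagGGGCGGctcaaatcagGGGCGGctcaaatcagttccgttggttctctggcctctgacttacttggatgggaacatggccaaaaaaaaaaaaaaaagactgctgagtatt
Gpam, chr19:55127239-55127488, minus strand: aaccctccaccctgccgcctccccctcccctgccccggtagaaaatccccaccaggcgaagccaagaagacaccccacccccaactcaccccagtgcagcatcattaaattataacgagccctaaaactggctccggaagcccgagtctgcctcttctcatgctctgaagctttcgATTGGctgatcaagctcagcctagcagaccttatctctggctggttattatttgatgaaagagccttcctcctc
Lpin1, chr12:16610967-16611216, minus strand: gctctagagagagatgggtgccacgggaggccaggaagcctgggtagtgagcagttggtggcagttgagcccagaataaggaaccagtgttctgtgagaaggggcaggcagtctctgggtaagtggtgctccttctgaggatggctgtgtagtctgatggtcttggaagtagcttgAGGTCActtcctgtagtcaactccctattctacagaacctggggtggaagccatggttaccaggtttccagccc
Cidec, chr6:113435761-113436010, minus strand: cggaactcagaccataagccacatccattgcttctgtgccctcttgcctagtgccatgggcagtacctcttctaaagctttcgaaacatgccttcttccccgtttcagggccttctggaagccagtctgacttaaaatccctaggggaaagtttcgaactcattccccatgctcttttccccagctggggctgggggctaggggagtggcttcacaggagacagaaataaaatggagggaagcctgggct

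Of the 10 members, 8 had an entry in that table. The half-site AGGTCA lay at -228 from the start in Cd36, on the opposite strand, and at -74 in Lpin1, and was absent from the printed stretches of Gpam and Cidec. The second stretch of Gpam, not printed, held it at -196, with a GC box at -16, and that of Cidec held no match. It was present in 14% of all 32851 stretches of this length. Cd36 also held 1 CCAAT and 2 GC boxes, and Gpam held 1 CCAAT on the opposite strand. CCAAT was found in 33.8% of all stretches and the GC box in 32.7%. Also searched on both strands were the direct repeat DR1, which contains the half-site (0.0335% of all stretches), the E-box CACGTG (6.02%), TCACCCCAC of sterol control elements (0.496%) and TATAAA (12.4%). None of these was in the 4 printed stretches. Among other members, Fabp1 held TATAAA at -30, with AGGTCA on the opposite strand at -67 and -9. The second stretch of Acsl1 held TCACCCCAC on the opposite strand at -76. The stretch of Mogat1 held no match to any of the motifs.

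Cd36, the scavenger receptor that takes up long-chain fatty acids, had the highest mean ratio of the 10 genes. Its log2 ratios on replicates 1 to 4 were 1.05, -0.012, 1.73 and 0.9. These are folds of 2.07, 0.992, 3.32 and 1.87, so the transcript was higher in 3 treated livers and level in the pair of replicate 2. The mean was 0.92 ± 0.72 (SD, n = 4, SE 0.26), a fold of 1.89, and did not pass (adjusted p = 0.145, limma). It was the only member with a mean change of 1.5-fold or more, which 0.795% of all genes reached. Without replicate 2 the mean was 1.23 and passed (adjusted p = 0.011, limma), at a setting where 28.2% of all genes passed. With an array left out, the mean ran from 0.65 to 1.23.

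The levels behind these ratios show where the pairs parted. In the untreated livers of replicates 1 to 4, Cd36 had log2 intensities of 11.34, 11.84, 10.7 and 10.76, after both channels had been normalized across arrays. In the treated livers it had 12.38, 11.83, 12.44 and 11.66. The untreated liver of replicate 2 was thus the highest of its group, and the 2 groups overlapped. Cd36 is also made by endothelial cells and macrophages. The 8 endothelial markers tested had array medians of 0.08, -0.17, 0.11 and 0.14, and the 8 Kupffer cell and macrophage markers -0.3, 0.28, 0.048 and 0.4. The part of these cells in the ratio of Cd36 was not tested. In whole tissue, fewer cells of a type and less RNA per cell cannot be told apart.

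Fabp1 encodes the liver fatty acid binding protein and is 1 of the most abundant liver transcripts. Its log2 ratios were -0.33, -0.31, -0.01 and -0.27, below 0 on all 4 arrays and nearly level in replicate 3. The mean was -0.23 ± 0.15 (SD, n = 4), a fold of 0.852 that did not pass (adjusted p = 0.146, limma). It was 0.12 after the running median of all probes along intensity had been subtracted and -0.51 with arrays centred on the median without loess, so its direction was not held.

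Acsl1, the main long-chain acyl-CoA synthetase of liver, was read by 3 probes. The brightest had log2 ratios of -0.45, -0.38, -0.18 and -0.17, a mean of -0.3 ± 0.14 (SD, n = 4) that did not pass (adjusted p = 0.144, limma). The next probe had 0.11, 0.013, -0.21 and -0.13, and the third 0.051, 0.043, -0.38 and -0.34. All 3 probes were below 0 on replicates 3 and 4, while on replicates 1 and 2 only the brightest was. The means of these dimmer probes were -0.055 ± 0.15 and -0.16 ± 0.24, and the mean over all 3 probes was -0.17. The gap between probes on 1 array reached 0.57.

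Dgat2 encodes the acyltransferase that makes most of the triglyceride of liver from newly built fatty acids. It was read by 3 probes, of which the brightest had -0.18, -0.55, -0.2 and -0.27, a mean of -0.3 ± 0.17 (SD, n = 4, adjusted p = 0.144, limma). The other probes had means of 0.094 ± 0.14 and 0.058 ± 0.16, each with both signs among the arrays. They were above 0 on replicates 1 and 3, where the brightest was below it, and all 3 probes were below 0 on replicate 2 only. The mean over the 3 probes was -0.051. On the brightest probe, untreated livers lay between 17.31 and 17.38 and treated livers between 16.83 and 17.16, without overlap. Non-overlap was found for the brightest probe of 3 of 10 members (Fabp1, Acsl1 and Dgat2) and for 7.07% of all genes.

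These 3 probes were the members' only ones with a log2 intensity of 17 or more, and there the median of all 153 genes tested was -0.3. The 6 hepatocyte markers of that brightness also had means below 0, the brightest being Alb, the albumin gene, at -0.7 ± 0.25 (SD, n = 4) and Trf, the transferrin gene, at -0.59 ± 0.13. With the running median of all probes along intensity subtracted they were at -0.15 and -0.18. The 3 dimmer markers were Ttr at 0.11 ± 0.13, Hnf4a at 0.077 ± 0.19 and Asgr1 at -0.075 ± 0.19. The dimmer probes of Hnf4a had means of -0.25 and -0.19. The hepatocyte list of 9 genes had a median of -0.41, with 5 of 9 at an unadjusted p under 0.05, all lower (16.6% of all genes), and a summed intensity of 1070000 to 1180000 in treated and 1470000 to 1510000 in untreated livers. That median was -0.66 without loess, -0.063 with the running median subtracted and -0.23 from processed signals. With Agilent's processed signals the means of Fabp1, Acsl1 and Dgat2 were -0.11, -0.07 and -0.11. With the running median subtracted, those of Acsl1 and Dgat2 were -0.052 and -0.073. The spots of these 3 probes were all read from the scanner's low-gain pass in both channels. In Cy5 the dimmer Acsl1 probes and the Dgat2 probe at 0.094 were also read from that pass on all 4 arrays. In Cy3 they were read from it on 1, 1 and 0 arrays. The part of brightness in these ratios was not tested beyond these values.

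**Figure D2:**
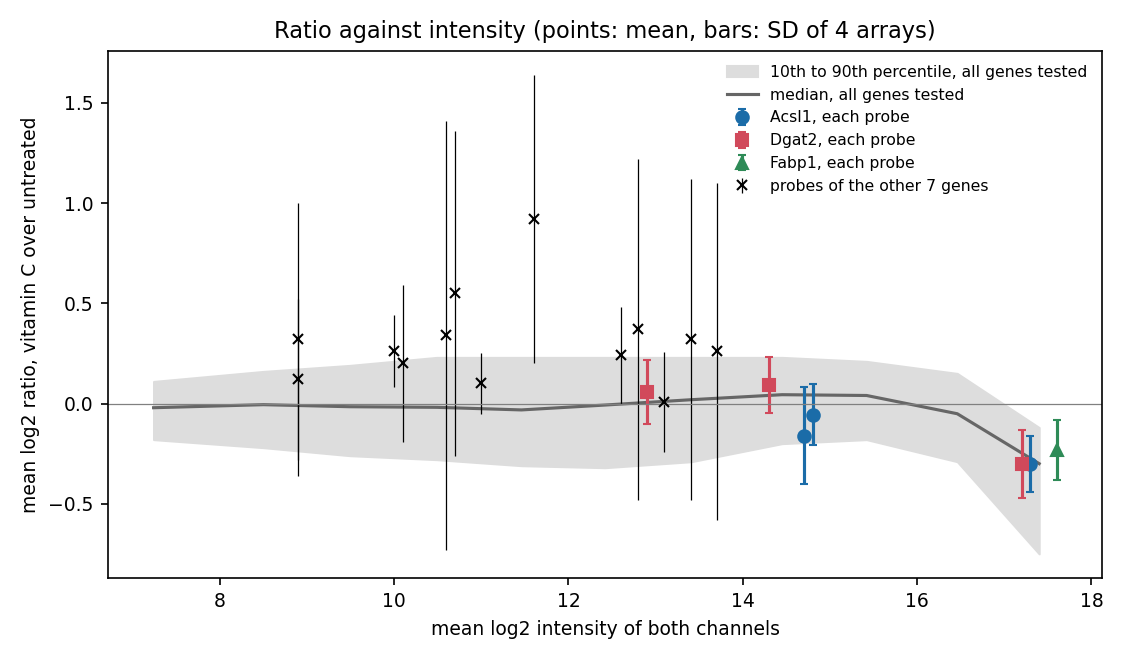
Mean log2 ratio (vertical axis) against mean log2 intensity of both channels (horizontal axis) for the members' 20 probes, with bars for the SD of 4 arrays, over the median (line) and the bulk (grey) of all genes tested. The brightest probes of Acsl1, Dgat2 and Fabp1 lie where the median of all genes is -0.3, and the dimmer probes of Acsl1 and Dgat2 lie nearer 0.

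Gpam encodes the mitochondrial acyltransferase of the first, committed step of glycerolipid synthesis. It had the largest spread of the members: 0.34, -1.01, 1.6 and 0.44 on replicates 1 to 4. The transcript was at a fold of 0.497 in the treated liver of replicate 2 and of 3.02 in that of replicate 3. The mean of 0.34 ± 1.07 (SD, n = 4) did not pass (adjusted p = 0.576, limma), and 0.148% of all genes had a larger SD. Without replicate 3 the mean was -0.075, and without replicate 2 it was 0.79. Untreated livers had log2 intensities of 10.39, 11.5, 9.88 and 10.08, a range of 1.62, and treated livers 10.73, 10.49, 11.48 and 10.52. The high values were thus the untreated liver of replicate 2 and the treated liver of replicate 3.

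By the distance between the 4 ratios, the 5 genes nearest to Gpam among 16854 named genes well above background were Mfsd2a, H2-Q1, Neurl2, Me1 and Rdh16, at 0.48 to 0.68. Mfsd2a, which encodes a transporter of lysophospholipids with long-chain fatty acids, had 0.58, -0.65, 1.8 and 0.41. Me1, the malic enzyme gene that supplies NADPH for fatty acid synthesis, had 0.85, -0.82, 1.54 and 0.74. A likeness over 4 arrays is a description only.

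Lpin1 encodes the phosphatidate phosphatase that yields diacylglycerol and that also acts as a transcriptional coactivator. Its brightest probe had -0.29, -0.61, 0.87 and 1.09. The other 2 probes gave -0.23, -0.48, 0.87 and 1.14, and -0.19, -0.51, 0.92 and 1.24. The 3 probes differed by at most 0.16 on any array, so the split of 2 pairs below 0 and 2 above was read alike by each. The means of 0.26 to 0.37, with SDs of 0.8 to 0.85 (n = 4), did not pass (adjusted p = 0.586 for the brightest, limma). The mean of the brightest was -0.01 without replicate 4 and 0.56 without replicate 2. Untreated livers had 13.81, 13.98, 13.34 and 13.14 and treated livers 13.52, 13.37, 14.2 and 14.23. The treated livers of replicates 3 and 4 were the highest of all 8, and the 2 groups overlapped.

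Agpat2, which adds the second acyl chain, was read by 2 probes at 0.0042, 0.15, 0.22 and -0.34, and at 0.27, 0.35, 0.43 and -0.11. Replicate 4 was the lowest on both. The dimmer probe had a mean of 0.24 ± 0.24 and the brighter 0.0059 ± 0.25 (SD, n = 4, adjusted p = 0.973, limma), with a gap between the probes of 0.21 to 0.26 on every array. Dgat1, the other enzyme of the final step, which re-esterifies fatty acids taken up from outside, had 0.27, -0.091, 0.1 and 0.14 on its brighter probe, a mean of 0.1 ± 0.15 (adjusted p = 0.347, limma). Its dimmer probe had 0.42, 0.014, 0.34 and 0.27, a mean of 0.26 ± 0.18, above 0 on all 4 arrays. With every probe tested on its own, 6 of the 20 had an unadjusted p under 0.05, 3 higher and 3 lower, beside 27.2% of all probes, and 0 passed after adjustment (limma).

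Mogat1 makes diacylglycerol from monoacylglycerol, and Cidec encodes FSP27, a coat protein that fuses small droplets into large ones. Cidec had log2 ratios of 1.31, 0.012, 1.17 and -0.3, folds of 2.48, 1.01, 2.25 and 0.81. The pairs of replicates 1 and 3 were thus higher in the treated liver, replicate 2 was level and replicate 4 was lower. The mean of 0.55 ± 0.81 (SD, n = 4) did not pass (adjusted p = 0.268, limma). It was 0.29, 0.73, 0.34 or 0.83 with replicate 1, 2, 3 or 4 left out. Untreated livers had 10.34, 10.87, 10.15 and 10.52, and treated livers 11.66, 10.88, 11.32 and 10.22, so the treated liver of replicate 4 was lower than 3 of the untreated ones.

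Mogat1 gave the same order of signs as Cidec on its brightest probe, with 0.58, 0.051, 0.44 and -0.28. The other 2 probes had 0.4, -0.12, 0.52 and -0.31, and 0.85, -0.12, 0.95 and -0.41. On each probe replicates 1 and 3 were the high pairs and replicate 4 the low one. The means were 0.12 to 0.32, and the brightest probe, at 0.2 ± 0.39 (SD, n = 4), did not pass (adjusted p = 0.395, limma). Leaving out replicate 1, 3 or 4 put the mean of that probe at 0.071, 0.12 or 0.36.

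Adipocyte markers were set beside these genes, since Cidec is high in fat tissue. Of 8 markers tested, 2 were higher at an unadjusted p under 0.05 (11.1% of all genes) and the list had array medians of 0.062, 0.17, 0.12 and -0.051. Its brightest genes were Fabp4, at 0.29 ± 0.23, and the lipoprotein lipase gene Lpl, with -0.64, 0.17, -0.85 and 0.73. Its summed intensity, in which the brightest genes weigh most, was 11100 to 12400 in treated and 8640 to 10600 in untreated livers. Of the 8 markers, 5 had a mean above 0 and 3 a mean below 0. The defining markers Adipoq and Lep had mean log2 intensities of 7.75 and 8.89, where negative control spots had a median of 5.96, and log2 ratios within 0.37 of 0. Cfd, which encodes adipsin and was named after its values had been seen, had 2.02, -0.025, 1.88 and -1.12, high in the same pairs as Cidec. Cidea, also in this list, had 0.86, 1.37, 0.85 and -0.18, high in replicates 1 and 3 but also in replicate 2. Not all markers were high in replicates 1 and 3. Adipoq had -0.022, 0.17, -0.37 and -0.18, and the brighter probe of Retn had -0.22, 0.2, -0.034 and -0.29. Both were below 0 in replicates 1 and 3. The part of fat tissue in the ratios of Cidec and Mogat1 was not tested.

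**Figure D3:**
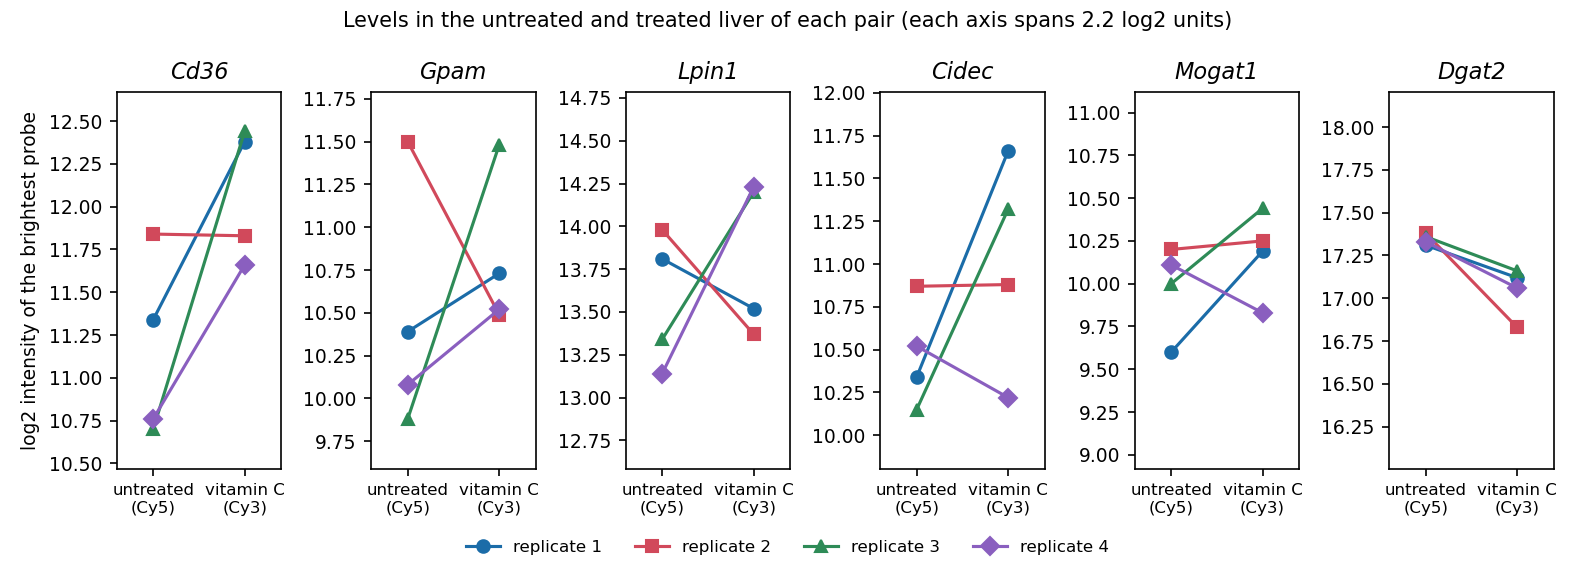
Log2 intensity of the brightest probe (vertical axis, of the same span in each panel) in the untreated (Cy5) and the treated (Cy3) liver of each pair for 6 members, with a line for each pair. Lines of Gpam, Lpin1 and Cidec cross, those of Dgat2 all run down, and those of Cd36 run up in 3 pairs and are level in replicate 2.

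The other genes of the pathway were taken from 5 lists, and 0 of their 77 genes with a probe passed over all genes (limma; the smallest adjusted p was 0.144 in each list). Among 15 genes of uptake and activation, the median was 0.018 and 3 had an unadjusted p under 0.05, a lower share than the 27.7% of all genes. The transporter gene Slc27a1 was at -0.35 ± 0.23 and below 0 on all 4 arrays, Fabp4, a binding protein of fat cells and macrophages, at 0.29 ± 0.23, and Dbi, the acyl-CoA binding protein gene, at -0.24 ± 0.21 (SD, n = 4). Dbi had a log2 intensity of 17.6 and a mean of 0.079 with the running median subtracted. Acsl3, a synthetase of droplet growth, had 0.47, -0.41, 1.04 and 0.58, and Acsl5 had 0.41, -0.4, 0.49 and 0.48.

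Among 16 genes of glycerolipid assembly the median was 0.063, with 3 at an unadjusted p under 0.05, again a lower share than the 27.7% of all genes. Agpat1, an isoenzyme of Agpat2, was at -0.69, 0.12, -1.03 and -1.08 on its brighter probe, a mean of -0.67 ± 0.55. Its dimmer probe had 0.25 ± 0.2, so the probes disagreed in sign. Lclat1, a lysocardiolipin acyltransferase gene, was at 0.26 ± 0.16 with a dimmer probe at -0.023, and Cept1, of phospholipid synthesis, at 0.29 ± 0.23. Gpat3, an acyltransferase of the same step as Gpam, had 0.86, -0.11, 1.02 and -0.11 and was high in the pairs in which Cidec was high.

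Droplet genes, 15 in number, had a median of 0.1, with array medians of 0.24, -0.019, 0.21 and -0.077, and 12 of them had a mean above 0, which 46.1% of all genes did. A mean above 0 was also found for 12 of 16 genes of glycerolipid assembly. In uptake and activation it was 9 of 15, in lipolysis and export 8 of 16 and in the regulators 8 of 15. The median of the droplet genes was -0.015 without loess. An unadjusted p under 0.05 was found for 3 higher and 1 lower, a share near the 27.7% of all genes. The lower was Rab18, a GTPase of the droplet surface, at -0.27 ± 0.069 and below 0 on all 4 arrays. Bscl2, the seipin gene, was at 0.22 ± 0.12 and the perilipin gene Plin4 at 0.33 ± 0.27. The main liver perilipin, Plin2, had 0.4, -0.15, 0.49 and -0.35, and G0s2, an inhibitor of adipose triglyceride lipase, had 1.17, -0.38, 0.93 and -0.13. Cidea, a relative of Cidec, had 0.86, 1.37, 0.85 and -0.18 and did not share the level value of Cidec in replicate 2.

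Genes of lipolysis and triglyceride export, 16 in number, had a median of 0.025, with 1 higher and 3 lower at an unadjusted p under 0.05, a share near the 27.7% of all genes. The higher was Angptl4, an inhibitor of lipoprotein lipase, at 0.24 ± 0.24 (SD, n = 4), named after its values were seen. Aadac, an esterase gene, was at -0.19 ± 0.065, the hormone-sensitive lipase gene Lipe at -0.24 ± 0.16 and Pnpla8, a phospholipase gene, at -0.13 ± 0.016 (SD, n = 4). The dimmer probes of Pnpla8 had means of 0.065 and 0.18, so its probes disagreed in sign. Aadac was at 0.028 with the running median subtracted. Pnpla3, which encodes a lipase-like protein of droplets, had the widest spread of any listed gene, -0.42, -1.77, 2.16 and 2.14, with the signs of Lpin1 in every pair. It was read by 1 probe with a log2 intensity of 8.15, the dimmest of this list, whereas the brightest probe of Lpin1 had 13.7. The transfer protein gene Mttp was at 0.11 ± 0.24.

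Among 15 regulators the median was 0.03, and 2 had an unadjusted p under 0.05, both higher, beside 11.1% of all genes. The gene of the xenobiotic receptor PXR, Nr1i2, was at 0.5 ± 0.24 and Nr1h2, which encodes LXR beta, at 0.26 ± 0.18 (SD, n = 4), both above 0 on all 4 arrays and both without passing (adjusted p = 0.144 and 0.146, limma). Cebpa was at 0.16 ± 0.17. Pparg, whose product is known to drive Cidec and Mogat1 in fatty liver, had 0.43, -0.11, 0.67 and 0.09. Srebf1, the gene of a regulator of fatty acid synthesis, had -0.38, -0.69, 0.61 and -0.095.

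**Figure D4:**
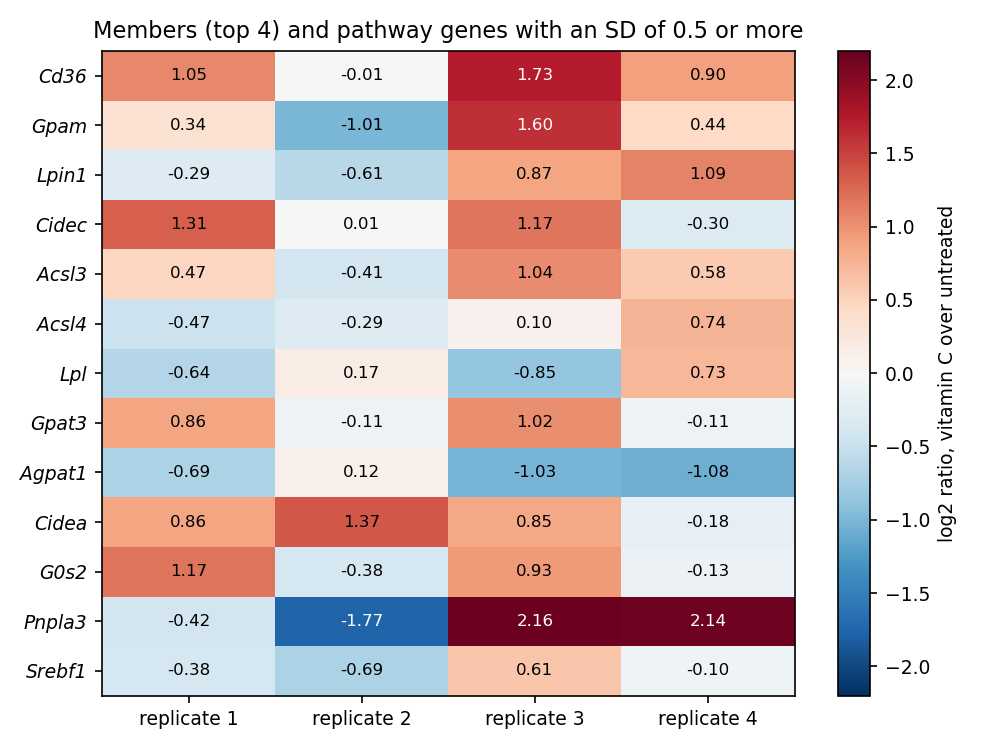
Log2 ratio of vitamin C over untreated on each array (columns) for the 4 members and 9 pathway genes (rows) whose SD over the arrays was 0.5 or more, in colour from lower (blue) to higher (red) in the treated liver. Gpat3 and G0s2 are high in replicates 1 and 3, as Cidec is, and Lpin1 and Pnpla3 are high in replicates 3 and 4. Pnpla3 was read by 1 dim probe (log2 intensity 8.15).

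Markers of other liver cells had medians of 0.098 (Kupffer cells and macrophages), 0.025 (endothelium), 0.081 (stellate cells) and -0.077 (cholangiocytes). The 2 brightest genes of each list were Cd5l at 0.26 ± 0.5 and Clec4f at 0.11 ± 0.28, Clec4g at 0.12 ± 0.078 and Stab2 at -0.06 ± 0.15, Dcn at 0.12 ± 0.09 and Col3a1 at 0.09 ± 0.15, and Spp1 at -0.092 ± 0.27 and Muc1 at -0.34 ± 0.18 (SD, n = 4).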

How the data were processed

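The authors deposited scanner files with spot intensity values, made by Feature Extraction 10.5.1.1 according to the headers: median signals and backgrounds, processed signals and flags. The deposited log10 ratio (Cy5 over Cy3) was not used. The table of log2 values deposited by the authors correlated at -0.968, -0.95, -0.974 and -0.98 with the ratios computed here (its medians were 0.00374, 0.00497, 0.00225 and 0.00136); its sign was turned, and its exact scale is unknown. The submitters' processing notes name limma; how the table was made is not given in the sources used here.

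Signals were background-corrected by normexp (offset 50), normalized by loess within arrays with control spots at weight 0, and averaged over spots of a probe without flagged outliers. Symbols came from RefSeq accessions (GRCm38.p6 table; 25097 of 41174 probes). Each gene was represented by its brightest probe, if well above background in either channel on 3 of 4 arrays. Ratios were tested against 0 with limma 3.58.1 (lmFit, eBayes; Benjamini-Hochberg) in R 4.3.3. Channel levels were normalized across arrays by Aquantile. For 4 values, 0.125 is the smallest two-sided p of an exact sign-flip test. On simulated data (200 of 31066 genes changed), the test recovered 56%, 86%, 98% and 98% of changes of 1.5, 2, 3 and 4 times, with 5.59% false calls. The simulated noise was drawn separately for each gene and array. On the real arrays replicate 2 ran apart and replicates 1, 3 and 4 correlated at 0.563 to 0.77. The simulated shares therefore cannot be carried over to these data.

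Members and lists were chosen with earlier results of these data known. Named were all members, the 3 genes of smallest p of each pathway list, the 2 brightest of each marker list and the 5 genes nearest to the member of largest SD; others were named after their values were seen. Fabp4, Lpl, Plin1 and Cidea stand in an adipocyte list and a pathway list, and Hnf4a in the hepatocyte list and the regulators.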

Additional observations from a re-analysis of the deposited data

Results flagged for a closer look

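Of 72 sets of 4 values examined, 3 had 1 array far from the other 3; chance alone gives about 1 in 20. Aadac was at -0.29 on replicate 3, against -0.17 to -0.15 on the others. Trf, the transferrin gene among the hepatocyte markers, was at -0.78 on replicate 3, against -0.53 to -0.52. Spp1, the osteopontin gene among the cholangiocyte markers, was at -0.5 on replicate 4, against 0.014 to 0.066. No probe of the 10 genes was among them.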

How the results depend on the processing

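Under 15 other settings, 142 of 150 values of the members kept their sign, and Cd36, Acsl1, Dgat2, Mogat1 and Cidec kept it in each. Settings that altered only the filter on dim probes, the variance model or the use of channels left the members' means unchanged. No sign could turn there. With every probe tested, the value counted was that of the brightest probe, although the dimmer Dgat2 probes had means of 0.094 and 0.058. Without loess (arrays centred on the median), 9638 of 31077 genes passed, 4350 higher and 5288 lower. The lower ones included 3 members, Fabp1, Acsl1 and Dgat2. The signs of Agpat2 (-0.12) and Dgat1 (-0.056) turned. With the running median along intensity subtracted, Fabp1 was at 0.12 and Agpat2 at -0.012. With an array left out, 0 to 8754 genes and 0 to 3 members passed, all of them without replicate 2 (Cd36 higher, Acsl1 and Dgat2 lower), and means ran from -0.075 to 0.79 for Gpam, -0.065 to 0.12 for Agpat2 and -0.01 to 0.56 for Lpin1. With both channels fitted as samples and arrays as random blocks, 885 of 31066 genes passed, 552 higher and 333 lower. The lower ones included 2 members, Acsl1 and Dgat2. With no replicate block, the pairing ignored, 0 genes and 0 members passed (limma; 4468 genes at an unadjusted p under 0.05).

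Of 180 medians of the members and lists under other settings, 170 stayed within the spread of the array medians. Settings that altered only the filter on dim probes, the variance model or the use of channels returned the main medians. Those values could not move, so the count overstates how stable the medians were. The hepatocyte median was -0.23 with Agilent's processed signals, -0.66 without loess, -0.063 with the running median subtracted and -0.26 over every probe. That of the regulators was -0.12 without loess and -0.026 to 0.095 with an array left out, and that of the stellate cell markers -0.054 without loess, 0.009 over every probe and -0.00065 to 0.1 with an array left out. The causes were not tested. All 10 members were well above background in both channels on all 4 arrays. An effect of background on the ratios of dim probes was not tested.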

Other observations

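Genes whose 4 ratios lay nearest to those of Cd36, Cidec and Lpin1 were looked up after the values had been seen, over the same 16854 named genes. Nearest to Cd36 was Acot1, an acyl-CoA thioesterase gene, at a distance of 0.26, with 1.26, -0.034, 1.77 and 1.05 on replicates 1 to 4. Serpina7, the gene of thyroxine-binding globulin, followed with 1.53, -0.15, 1.65 and 1.17. Nearest to Cidec were Vnn1, a pantetheinase gene, with 1.34, -0.17, 1.17 and -0.62, and Cyp4a31, of the fatty acid hydroxylase family, with 1.43, -0.25, 1.26 and 0.06. The Cyp4a genes share much of their sequence, so the signal of a single one is uncertain. Nearest to Lpin1 were Nfe2, Mindy2 and Pcdh17, at 0.46 to 0.49. These are likenesses over 4 arrays and carry no test.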
